A study of Mus musculus with 6 samples.

Results

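The protein kinase C (PKC) family was followed through 3 sorted cell subsets from mouse dorsal root ganglia (DRG), with the question of which isoform genes each subset used. The 8 genes were taken by symbol from a deposited expression table of 23029 rows, and each was found once. Cells were sorted by flow cytometry from mice with 1 wild-type and 1 mCherry allele of the GINIP locus (GINIP+/mcherry), a genotype shared by every group. DP cells stained with isolectin B4 (IB4) and carried the GINIP reporter, and the labels call them Mrgprd+ neurons. C-LTMR cells, the C-fibre low-threshold mechanoreceptors, carried the reporter without IB4. DN cells had neither and are whatever remained, so DN is a mixture and not a cell type. Each subset had 2 libraries, 6 in all. The labels do not say that these came from separate animals or whether animals were pooled, so a p-value here reflects the spread between the libraries alone, which may be technical.

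PKC enzymes are serine/threonine kinases that carry signals from receptors coupled to phospholipase C. That enzyme splits a membrane lipid into diacylglycerol and inositol trisphosphate, and inositol trisphosphate releases calcium. The conventional isoforms (cPKC) need both calcium and diacylglycerol. A second class, written nPKC, needs diacylglycerol alone, and the atypical isoforms (aPKC) need neither and work with partner proteins of cell polarity. In sensory neurons PKC phosphorylates ion channels such as the capsaicin receptor and is known for sensitizing nociceptors, with PKC epsilon the best studied isoform.

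All isoforms hold themselves inactive with a pseudosubstrate, a short stretch that resembles a substrate but has alanine where a phosphorylated residue would stand. Its coding sequence is shown because all members have it and it differs between them at RNA level. Each line gives 13 codons, 5′ to 3′, from the longest open reading frame of the annotated coding transcripts (GENCODE M21, GRCm38), with the alanine codon in capitals.
Prkca: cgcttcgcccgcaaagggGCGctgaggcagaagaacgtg
Prkcb: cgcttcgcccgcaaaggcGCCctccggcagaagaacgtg
Prkcd: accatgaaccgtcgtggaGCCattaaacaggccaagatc
Prkcq: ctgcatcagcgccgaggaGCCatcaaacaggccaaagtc
Prkce: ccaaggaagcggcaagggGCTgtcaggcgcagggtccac
Prkch: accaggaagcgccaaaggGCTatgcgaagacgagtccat
Prkcz: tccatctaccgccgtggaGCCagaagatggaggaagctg
Prkci: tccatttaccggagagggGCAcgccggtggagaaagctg
Over these 39 bases Prkca and Prkcb had 35 in common, Prkcd and Prkcq 26, Prkce and Prkch 26, and Prkcz and Prkci 28. Likeness did not follow class throughout: Prkcd of the nPKC and Prkcz of the aPKC class had 25 in common, and Prkcq and Prkch, both nPKC genes, had 13. Of 28 pairs of members, 1 had any 30-base word in common in the transcripts used, namely Prkca and Prkcb with 9 such words.

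Levels are given in RPKM, reads per kilobase of gene scaled to the size of the library, so that genes of different length can be compared. For Prkcb the deposited values imply a length of 8868 bases, while its longest transcript in GENCODE M21 has 3328. The level of Prkcb beside other members therefore depends on the length used, but its RPKM ratios between subsets do not. Low values fell on steps of whole reads, from which the libraries were estimated to hold 32.3 to 42.1 mega-reads, and the members were covered by an estimated 149 to 35329 reads per library. Mrgprd was at 220 and 277 RPKM in DP, 1.32 and 2.01 in C-LTMR and 0.345 and 0.953 in DN, and Th, a defining gene of C-LTMRs, was at 48.8 and 61.7 in DP, 1017 and 1038 in C-LTMR and 31.7 and 14.2 in DN. A difference counted as called where limma gave a p below 0.05 after Benjamini-Hochberg (BH) adjustment and the log2 fold change was 1 or more in size. Fold changes were taken after adding 0.1 RPKM before the logarithm, so those of weakly expressed genes are understated. All 8 members passed the filter on low values, and the fit covered 13478 rows.

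PKC RNA was highest in DP neurons, where Prkcd, Prkcq and Prkca led. The summed RPKM of the 8 genes was 528 and 531 in DP, 178.5 and 177.8 in C-LTMR and 138 and 113 in DN. Prkcd was the most abundant isoform gene in every library, but the gene behind it differed. In DP it was Prkcq, and in both C-LTMR and DN it was Prkce, although in DN this rests on the gene length used for Prkcb. In sorted bulk cells, fewer cells of a type and less RNA per cell cannot be told apart, and this holds for every level below.

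**Figure D1:**
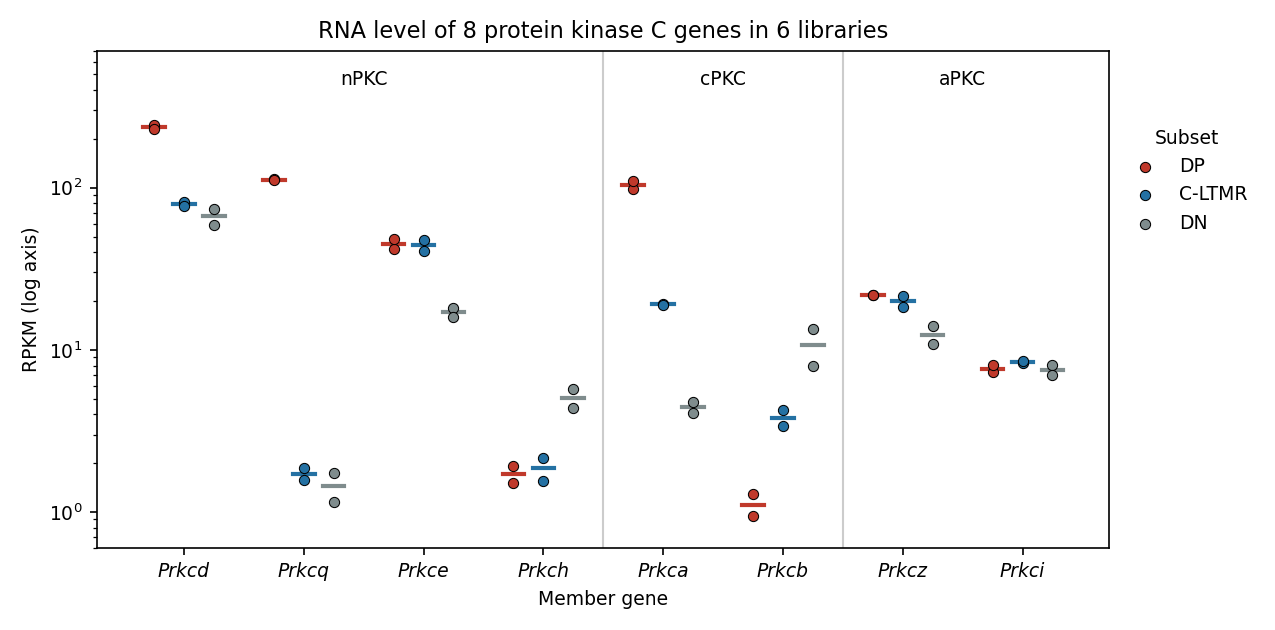
RPKM on a log axis of the 8 genes, grouped as nPKC, cPKC and aPKC, in the DP, C-LTMR and DN libraries. Points are libraries and bars are means of 2. Prkcq is at 113 and 111 RPKM in DP and at most 1.87 elsewhere, while Prkci lies between 7.01 and 8.54 in all 6 libraries.

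Shares of the summed RPKM, which scaling between libraries cannot alter, describe the isoform choice. They depend on the gene lengths used, and a shorter length for Prkcb would raise its share and lower the others, most of all in DN. Prkcd made up 44.6% ± 2.06 in DP, 44.4% ± 1.90 in C-LTMR and 53.1% ± 0.640 within DN (SD, n = 2 each). Behind this common base, Prkcq took 21.2% ± 0.323 in DP, 0.968% ± 0.115 in C-LTMR and 1.19% ± 0.503 within DN. Prkca took 19.7% ± 1.45 in DP, 10.7% ± 0.0819 in C-LTMR and 3.55% ± 0.0992 within DN. The Prkca shares of the 3 subsets did not overlap, nor did those of Prkcq in DP and in the other 2 subsets.

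In C-LTMRs Prkce stood next after Prkcd, followed by Prkcz and Prkca, whose libraries overlapped. Prkce took 8.502% ± 0.761 in DP, 24.8% ± 2.64 in C-LTMR and 13.7% ± 0.680 within DN (SD, n = 2 each). Prkcz took 4.13% ± 0.025 in DP, 11.2% ± 1.21 in C-LTMR and 9.88% within DN, where the libraries were at 10.1% and 9.65%. Prkcb was the largest cPKC share in DN, at 8.42% ± 1.92, against 0.209% ± 0.0454 in DP and 2.14% ± 0.332 in C-LTMR. Prkch took 4.14% ± 1.34 in DN, against 0.323% ± 0.0521 in DP and 1.04% ± 0.238 in C-LTMR.

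**Figure D2:**
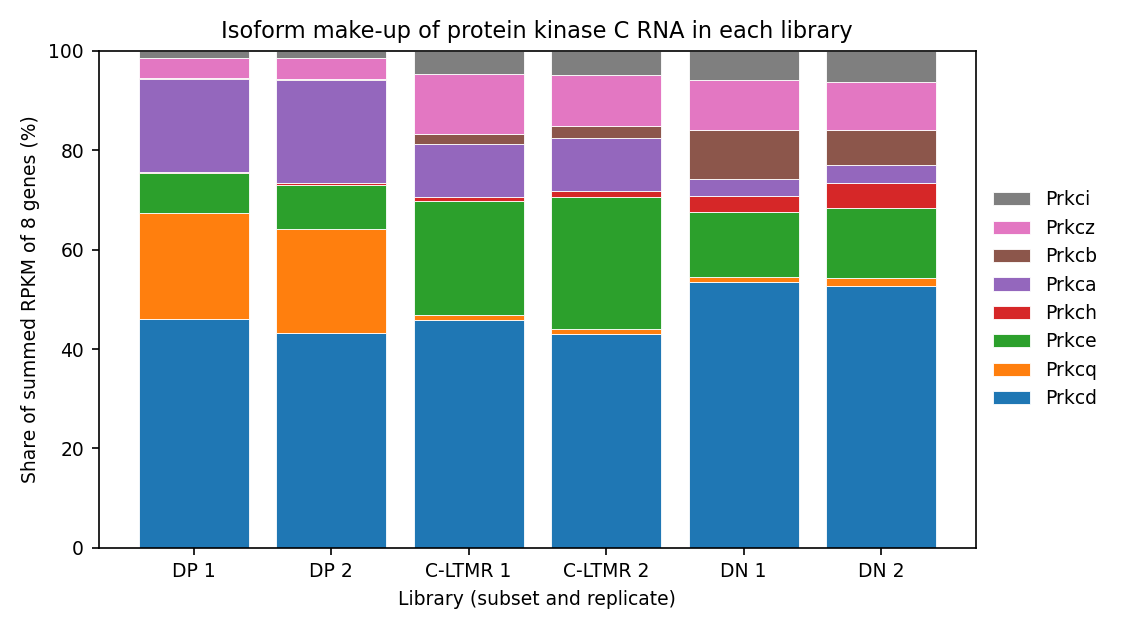
Stacked bars give each gene's share, in percent, of the summed RPKM of the 8 genes in each library. Prkcd fills 43.1% to 53.6% of every bar, Prkcq fills 21.4% and 20.9% in DP and at most 1.55% elsewhere, and Prkce reaches 22.9% and 26.6% in C-LTMR.

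With the gene lengths used, nPKC differed least in share between the subsets of the 3 classes. This ranking rests on the length of Prkcb: a shorter one would raise the cPKC share and lower the nPKC and aPKC shares, most of all in DN. The 4 nPKC genes together made up 74.6% ± 1.57 in DP, 71.2% ± 0.863 in C-LTMR and 72.1% ± 1.89 within DN (SD, n = 2 each), the C-LTMR and DN libraries overlapped in this share, and the nearest DP and DN libraries were both at 73.45%. The cPKC genes made up 19.9% ± 1.49 in DP, 12.8% in C-LTMR (12.65% and 13.0%) and 12.0% ± 1.82 within DN. The aPKC genes made up 5.58% ± 0.0776 in DP, 15.97% ± 1.11 in C-LTMR and 15.9% ± 0.0633 within DN. Their summed level was 29.5 ± 0.5002 RPKM in DP, 28.5 ± 2.06 RPKM in C-LTMR and 19.9 ± 2.92 RPKM in DN, and the DP and C-LTMR libraries overlapped in this sum. Within the cPKC class the ratio of Prkca to Prkcb was 105 and 85.6 in DP, 5.63 and 4.47 in C-LTMR and 0.356 and 0.513 in DN. Prkca was thus the more abundant of this pair in both GINIP+ subsets and Prkcb in DN.

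DP against C-LTMR sets the IB4+ against the IB4- cells among those with the GINIP reporter. Of the 8 members 4 were called in either direction, where 15.2% of all rows were. Prkcq, Prkca and Prkcd were higher in DP (3 called higher, where 6.60% of all rows were) and Prkcb was lower (1 called lower, where 8.62% of all rows were). Prkce, Prkch, Prkcz and Prkci were not called. The median log2 fold change of the members was 0.0809, beside -0.0492 over all rows tested.

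Prkcq encodes PKC theta, an nPKC isoform best known from T cell receptor signalling and skeletal muscle (Entrez 18761, GRCm38 chromosome 2, 11172382 to 11301226). Its level was 113 and 111 RPKM in DP, 1.87 and 1.58 RPKM in C-LTMR and 1.15 and 1.74 RPKM in DN. DP stood far above the rest, and the C-LTMR and DN libraries overlapped. The log2 fold change was 5.95 in DP over C-LTMR (SE 0.194, limma BH-adjusted p = 2.27e-05) and 6.21 in DP over DN (limma BH-adjusted p = 3.8e-06), with DP higher in every pair of libraries. Of the 13478 rows, 14 had a larger fold change in DP over C-LTMR and 20 in DP over DN. Lymphocyte markers were low in every library. The 12 genes of that list summed to 1.89 and 1.96 RPKM in DP, 5.18 and 5.33 in C-LTMR and 6.85 and 6.42 in DN, and the T cell receptor gene Cd3e was at 0.0149 and 0 RPKM in DP and at 0 in the other 4 libraries. Single genes of the list differed in order: Lck was at 0.775 and 1.02 RPKM in DP, 4.84 and 4.57 in C-LTMR and 3.62 and 3.43 in DN. Ptprc, the common leukocyte gene, was highest in DP, at 0.272 and 0.174 RPKM, with 0.00516 and 0.0251 in C-LTMR and 0.0457 and 0.082 in DN. The part of such cells in the level of Prkcq was not tested.

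Prkca encodes PKC alpha, a cPKC isoform found in many tissues (Entrez 18750, chromosome 11, 107933387 to 108343888). Its level was 98.4 and 109.7 RPKM in DP, 19.2 and 18.9 RPKM in C-LTMR and 4.79 and 4.07 RPKM in DN. The subsets formed 3 separate steps, with DP highest and DN lowest. All steps were called, with a log2 fold change of 2.44 in DP over C-LTMR (limma BH-adjusted p = 3.92e-05), 4.52 in DP over DN (limma BH-adjusted p = 2.41e-06) and 2.08 in C-LTMR relative to DN (limma BH-adjusted p = 1.64e-05), each with SE 0.112. The annotation has the gene Apoh on the opposite strand with 30 exonic bases in common with Prkca, and the use of strand is not given in the sources used here.

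Prkcd encodes PKC delta, an nPKC isoform known for roles in apoptosis and in immune cells (Entrez 18753, chromosome 14, 30595354 to 30626208). Its level was 243 and 229 RPKM in DP, 81.7 and 76.6 RPKM in C-LTMR and 73.8 and 59.3 RPKM in DN. DP was above both other subsets, and the C-LTMR libraries were just above the DN libraries. The log2 fold change was 1.57 in DP over C-LTMR (SE 0.120, limma BH-adjusted p = 0.000174) and 1.83 in DP over DN (limma BH-adjusted p = 3.58e-05). C-LTMR over DN was not called for Prkcd (log2 fold change 0.26, limma BH-adjusted p = 0.104), except with libraries rescaled to the median level of pan-sensory-neuron genes (1.02). The 13 macrophage and neutrophil markers summed to 233 and 261 RPKM in DP, 5.56 and 10.02 in C-LTMR and 63.4 and 115 in DN. In DP the neutrophil genes S100a9 (102 and 115 RPKM) and S100a8 (59.4 and 75.6 RPKM) held most of that sum, while the macrophage receptor gene Csf1r was at 0.264 and 0.114 RPKM. The list did not move as one. Of the 8 markers that passed the filter, 6 were called higher and 0 lower in DP over C-LTMR, where 6.60% and 8.62% of all rows were. In DP over DN 3 were higher and 4 lower, where 7.92% and 24.4% of all rows were. The part of macrophages and neutrophils in the level of Prkcd was not tested.

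The promoters of the 3 genes that were higher in DP are shown beside that of Prkci, whose level was nearly flat. RefSeq promoter sequences (GRCm38.p6, 250 bases before to 50 after a start) matched 6 of the 8 members with 9 starts in all, and Prkce and Prkch were not among them. The letters searched on both strands were TGTGGT, the core of RUNX sites, then GGGCGG, known as the GC box, then the CCAAT box by its letters, and TATAAA, known as the TATA box. Matches on either strand are in capitals. For Prkcd the first of its 2 starts is shown. In the 4 promoters shown no 2 motifs overlapped.
Prkcq, chr2:11172132-11172431, plus strand: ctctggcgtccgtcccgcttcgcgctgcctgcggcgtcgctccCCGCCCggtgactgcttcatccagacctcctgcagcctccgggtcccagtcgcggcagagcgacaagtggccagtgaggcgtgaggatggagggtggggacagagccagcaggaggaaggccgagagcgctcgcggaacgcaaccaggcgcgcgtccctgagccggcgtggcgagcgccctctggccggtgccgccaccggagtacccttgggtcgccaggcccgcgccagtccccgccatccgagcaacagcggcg
Prkca, chr11:108343839-108344138, minus strand: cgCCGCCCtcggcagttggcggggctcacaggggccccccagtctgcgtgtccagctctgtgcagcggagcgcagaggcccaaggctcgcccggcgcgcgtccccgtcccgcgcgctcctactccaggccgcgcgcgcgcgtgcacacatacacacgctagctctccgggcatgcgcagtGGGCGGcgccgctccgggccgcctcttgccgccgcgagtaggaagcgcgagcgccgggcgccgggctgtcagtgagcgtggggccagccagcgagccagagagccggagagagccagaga
Prkcd, chr14:30626159-30626458, minus strand: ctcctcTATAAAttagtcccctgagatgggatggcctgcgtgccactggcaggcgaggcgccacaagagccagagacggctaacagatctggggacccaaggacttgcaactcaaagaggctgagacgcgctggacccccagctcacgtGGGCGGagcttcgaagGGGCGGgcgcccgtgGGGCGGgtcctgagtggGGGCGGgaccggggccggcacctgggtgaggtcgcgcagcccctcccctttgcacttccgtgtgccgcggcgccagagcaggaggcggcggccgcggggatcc
Prkci, chr3:30995521-30995820, plus strand: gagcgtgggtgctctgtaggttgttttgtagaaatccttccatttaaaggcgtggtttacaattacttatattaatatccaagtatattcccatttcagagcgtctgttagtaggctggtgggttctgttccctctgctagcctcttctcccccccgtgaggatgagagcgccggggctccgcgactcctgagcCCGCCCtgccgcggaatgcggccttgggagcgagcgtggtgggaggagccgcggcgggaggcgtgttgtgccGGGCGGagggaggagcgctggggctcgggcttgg
The GC box occurred once for Prkcq, at 2 places for Prkca, 4 for Prkcd and 2 for Prkci, and 35.7% of the 32851 promoters of this length held it. The RUNX letters, found in 16.8% of promoters, and the CCAAT letters, found in 37.4%, are in none of these 4 windows. The TATA letters, found in 13.6%, occur in that of Prkcd, at position -244 from the start. The 4 windows were 73.0%, 75.3%, 69.3% and 59.7% G or C for Prkcq, Prkca, Prkcd and Prkci, with 37, 42, 26 and 22 CpG pairs, beside medians of 52.7% and 7 over all promoters. These matches are descriptions of the letters and say nothing of which factors bind.

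Prkcb encodes PKC beta, a cPKC isoform known from B cell signalling and from blood vessels, and its order across the subsets was the reverse of that of Prkca (Entrez 18751, chromosome 7, 122289125 to 122634401). Its level was 0.937 and 1.28 RPKM in DP, 3.40 and 4.23 RPKM in C-LTMR and 13.5 and 7.94 RPKM in DN. The 3 subsets did not overlap, although the DN libraries lay well apart from each other. The log2 fold change of Prkcb was -1.70 in DP over C-LTMR (SE 0.277, limma BH-adjusted p = 0.00419) and -3.13 in DP over DN (limma BH-adjusted p = 0.000118). In C-LTMR relative to DN it was -1.42 (limma BH-adjusted p = 0.00423). The first of these was not called when every row of the table was tested (limma BH-adjusted p = 0.0597).

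**Figure D3:**
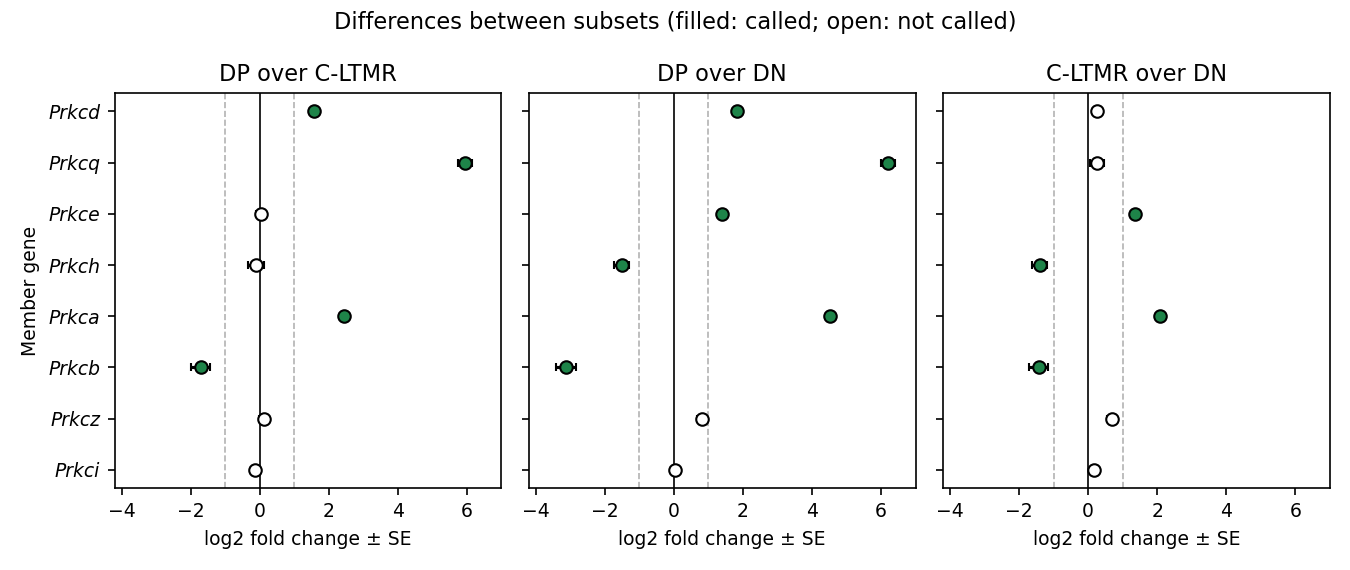
Log2 fold changes with SE of the 8 genes for DP over C-LTMR, DP over DN and C-LTMR over DN (filled points called, open points not called; dashed lines at -1 and 1). Prkcq reaches 5.95 and 6.21 in the comparisons with DP and 0.26 in C-LTMR over DN, and Prkcb is below -1 in all 3.

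The remaining comparisons set each GINIP+ subset against the cells that had neither label, DP over DN and C-LTMR over DN. Both comparisons use the same DN libraries. In DP over DN 6 of 8 were called in either direction, where 32.4% of all rows were. There Prkcq, Prkca, Prkcd and Prkce were higher (4 of 8, where 7.92% of all rows were called higher) and Prkcb and Prkch were lower (2 of 8, where 24.4% of all rows were called lower). In C-LTMR over DN 4 of 8 were called in either direction, where 30.9% of all rows were. There Prkca and Prkce were higher (2 of 8, where 8.67% of all rows were called higher) and Prkcb and Prkch were lower (2 of 8, where 22.3% of all rows were called lower). The median log2 fold change of the members was 1.11 in DP over DN, beside -0.167 over all rows, and 0.26 in C-LTMR over DN, beside -0.0637. The split of all calls in these comparisons rests on scaling: 24.5% of the calls in DP over DN were higher, but 46.9% after quantile normalization and 52.9% with libraries rescaled to pan-sensory-neuron genes. In C-LTMR over DN 28.0% were higher, but 48.6% and 65.6% under the same alternatives. The rescaling set each library by the median level of 18 pan-sensory-neuron genes, and it did not level those genes. Before it, their median log2 fold change was 0.363 in DP over DN and 0.404 in C-LTMR over DN. Its factors were 0.599 and 0.878 in DN and 1.11 to 1.31 in the GINIP+ libraries, which widened that gap. Values under it are therefore not values at an equal level of neuronal RNA. For the members that rescaling gave 5 higher and 1 lower in DP over DN, and 4 higher and 0 lower in C-LTMR over DN. Of all 13478 rows it gave 2777 higher and 2472 lower in DP over DN, and 4132 higher and 2166 lower in C-LTMR over DN.

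Prkce encodes PKC epsilon, the nPKC isoform that sensitizes nociceptors to mechanical stimuli in rodents (Entrez 18754, chromosome 17, 86167785 to 86657919). In the annotation an unnamed entry on the same strand has 472 exonic bases in common with Prkce. The level of Prkce was 42.1 and 48.0 RPKM in DP, 40.9 and 47.3 RPKM in C-LTMR and 18.2 and 15.9 RPKM in DN. The DP and C-LTMR libraries overlapped, and DN was below both. The log2 fold change was 0.03 in DP over C-LTMR (SE 0.122, limma BH-adjusted p = 0.877), 1.40 in DP over DN (limma BH-adjusted p = 0.00011) and 1.37 in C-LTMR relative to DN (limma BH-adjusted p = 0.000122). Prkce was thus higher than DN in both GINIP+ subsets, and Prkcq in DP.

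Prkch encodes PKC eta, an nPKC isoform known from epithelia, and it was low in both GINIP+ subsets (Entrez 18755, chromosome 12, 73585041 to 73778184). Its level was 1.51 and 1.91 RPKM in DP, 1.56 and 2.15 RPKM in C-LTMR and 4.39 and 5.73 RPKM in DN. DP and C-LTMR overlapped, and DN was above both. The log2 fold change was -1.51 in DP over DN (SE 0.222, limma BH-adjusted p = 0.00114) and -1.40 in C-LTMR relative to DN (limma BH-adjusted p = 0.00165). Neither was called with libraries rescaled to pan-sensory-neuron genes (log2 fold change -0.90 and -0.66), and the first was not called after quantile normalization either (-0.96). Prkcb in C-LTMR over DN was likewise not called with that rescaling (-0.67, limma BH-adjusted p = 0.0506).

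Markers of other cells were high in the DN libraries, where Prkcb and Prkch were highest. The 10 endothelial markers summed to 4.81 and 2.61 RPKM in DP, 0.673 and 0.362 in C-LTMR and 332 and 579 in DN. The 14 markers of satellite glia and Schwann cells summed to 1254 and 1742 RPKM in DP, 2341 and 3258 in C-LTMR and 8901 and 18580 in DN. Of that sum Pmp22 held 521 and 483 RPKM in DP, 1203 and 1166 in C-LTMR and 768 and 680 in DN. The 10 pericyte and fibroblast markers summed to 28.9 and 31.3 RPKM in DP, 86.7 and 93.0 in C-LTMR and 333 and 481 in DN. In C-LTMR Rgs5 held most of that sum, at 79.5 and 82.3 RPKM, beside 6.42 and 6.85 in DP. Of these 10 markers 5 were called higher and 2 lower in DP over C-LTMR, where 6.60% and 8.62% of all rows were. The 5 peptidergic nociceptor markers, led by Calca and Tac1, summed to 914 and 812 RPKM in DP, 1317 and 1233 in C-LTMR and 8631 and 7823 in DN. DN replicate 1 had the lower endothelial and glial sums and the higher level of Prkcb, and DN replicate 2 the reverse. Prkch was higher in DN replicate 2. In DP and in C-LTMR, Prkch, Prkcb and the glial sum were all higher in replicate 2, and the endothelial sum was lower there. The part of these cell types in either gene was not tested.

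**Figure D4:**
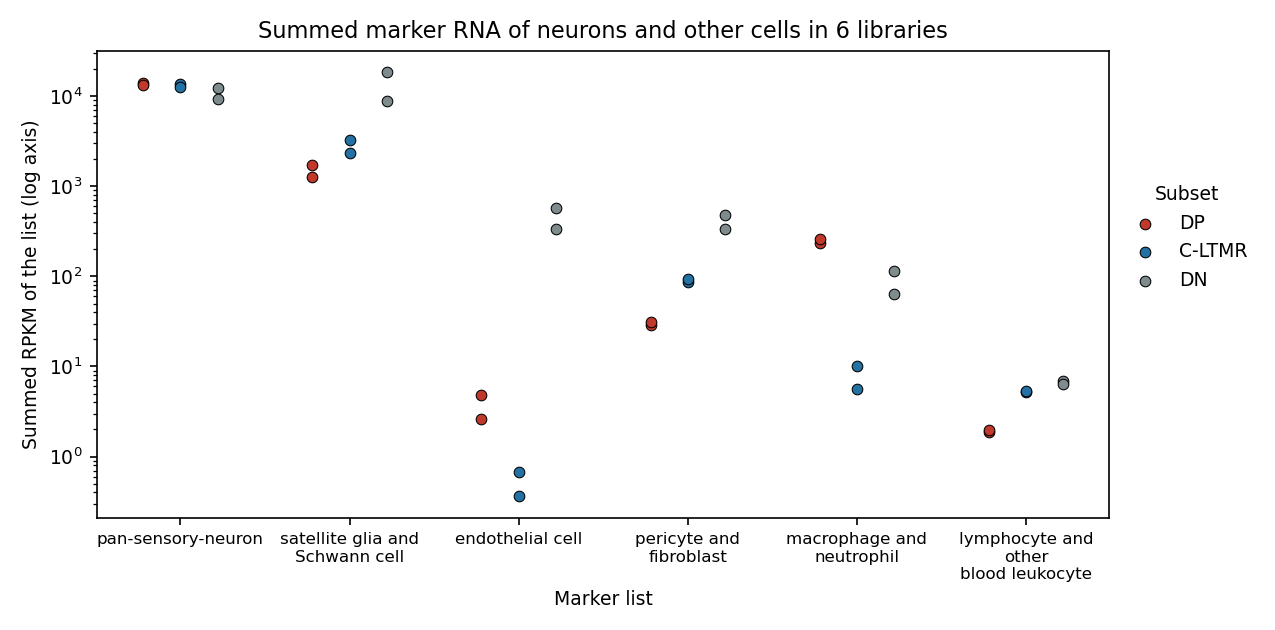
Summed RPKM of 6 marker lists on a log axis in the DP, C-LTMR and DN libraries, with 1 point per library. The endothelial sum is 332 and 579 in DN and below 5 in both GINIP+ subsets, and the macrophage and neutrophil sum is highest in DP.

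The aPKC genes varied least. Prkci, which encodes PKC iota and is a core enzyme of cell polarity (Entrez 18759, chromosome 3, 30995771 to 31052740), was at 7.25 and 8.05 RPKM in DP, 8.32 and 8.54 RPKM in C-LTMR and 8.06 and 7.01 RPKM in DN. Its log2 fold changes were -0.14 in DP over C-LTMR, 0.02 in DP over DN and 0.16 in C-LTMR over DN, each with SE 0.119, and none was called (limma BH-adjusted p of 0.275 or more). Rescaled to pan-sensory-neuron genes, they were 0.64 in DP over DN (limma BH-adjusted p = 0.0404) and 0.92 in C-LTMR relative to DN (limma BH-adjusted p = 0.00427), short of the fold criterion. Prkcz encodes PKC zeta, and an internal start of this gene is known to give a constitutively active kinase in brain, which a gene-level value cannot tell from the full-length form (Entrez 18762, chromosome 4, 155260120 to 155361391). Its level was 21.9 and 21.8 RPKM in DP, 21.6 and 18.5 RPKM in C-LTMR and 13.9 and 10.9 RPKM in DN. The DN libraries were below all others in the level of Prkcz. The log2 fold change of Prkcz was 0.83 in DP over DN (SE 0.143, limma BH-adjusted p = 0.00237) and 0.69 in C-LTMR relative to DN (limma BH-adjusted p = 0.00543), past the p threshold but short of the fold criterion. It met that criterion in DP over DN without DN replicate 1 (1.004) and in both comparisons when rescaled to pan-sensory-neuron genes (1.44 and 1.46).

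Neighbours in the order of levels did not always differ, and the place of Prkcb in it depends on the gene length used. In DP no 2 neighbouring genes overlapped, from Prkcd through Prkcq, Prkca, Prkce, Prkcz, Prkci and Prkch down to Prkcb. In C-LTMR the order was Prkcd, Prkce, Prkcz, Prkca, Prkci, Prkcb, Prkch and Prkcq, and the libraries of Prkcz and Prkca overlapped, as did those of Prkch and Prkcq. In DN the order was Prkcd, Prkce, Prkcz, Prkcb, Prkci, Prkch, Prkca and Prkcq. There Prkcz and Prkcb overlapped, as did Prkcb and Prkci, and Prkch and Prkca.

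The genes whose profile over the 6 libraries was nearest to a member's were sought among all rows tested, by the root-mean-square difference of mean-centred log2(RPKM + 0.1) values. Nearest to Prkcq were Lpar3, a lysophosphatidic acid receptor gene (difference 0.277), Gm765 (0.34) and Otoa (0.44). Lpar3 was at 190.4 and 186 RPKM in DP, 2.48 and 2.48 in C-LTMR and 2.601 and 4.12 in DN. Nearest to Prkca were Unc13c (0.180), Rspo2 (0.186) and Fam83d (0.186), and Unc13c encodes a synaptic protein that itself binds diacylglycerol. Prkcd had Pcsk2, a prohormone convertase gene (0.0897), Lap3 (0.0980) and Tmem63c (0.0993). Prkce had Fnbp1 (0.0353), Mfhas1 (0.0446) and Slc7a8 (0.0653), the closest matches among the 6 members called in any comparison. Prkcb had Ust (0.134), Camk2b (0.164) and Kndc1 (0.199), and Prkch had Shroom2 (0.0664), Slc2a9 (0.0763) and Abca8b (0.0867).

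Genes that make and remove diacylglycerol, the lipid that activates most members, were read against the share of all rows called. Of 13 phospholipase C genes 9 passed the filter. In DP over C-LTMR 2 were higher (Plcb3 and Plcd1) and 3 lower (Plcb1, Plcb4 and Plcg2), where 6.60% of all rows were higher and 8.62% lower, and the median log2 fold change was -0.524, beside -0.0492 over all rows. Plcb3, an effector of Gq-coupled receptors in nociceptors, was at 73.1 and 73.3 RPKM in DP, 19.4 and 16.8 RPKM in C-LTMR and 19.5 and 14.3 RPKM in DN. It was the most abundant of the 13 in DP, and its log2 fold change was 2.02 in DP over C-LTMR (limma BH-adjusted p = 0.000187) and 2.13 in DP over DN (limma BH-adjusted p = 5.64e-05). Plcb1 ran the other way, at 0.831 and 1.07 RPKM in DP, 3.46 and 3.77 in C-LTMR and 3.31 and 3.93 in DN (log2 fold change -1.83 in DP over C-LTMR, limma BH-adjusted p = 0.000409). In DP over DN 1 phospholipase C gene was higher and 4 were lower, where 7.92% of all rows were higher and 24.4% lower. In C-LTMR over DN 0 were higher and 3 lower, where 8.67% of all rows were higher and 22.3% lower, so 3 of 9 is near the background.

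Diacylglycerol kinases end the signal by phosphorylating the lipid. Of 10 genes 9 passed the filter. In DP over C-LTMR Dgkg, Dgkh and Dgki were higher and Dgkk was lower, where 6.60% of all rows were higher and 8.62% lower. The median log2 fold change was 0.42, beside -0.0492 over all rows. In DP over DN 5 were higher and 2 lower (median 1.07, beside -0.167), where 7.92% of all rows were higher and 24.4% lower. Dgkz, the most abundant in both GINIP+ subsets, was at 187 and 178 RPKM in DP, 114 and 95.7 RPKM in C-LTMR and 17.6 and 13.4 RPKM in DN. It was higher in both GINIP+ subsets than in DN (log2 fold change 3.57 in DP, limma BH-adjusted p = 8.52e-06, and 2.76 in C-LTMR, limma BH-adjusted p = 1.68e-05) and was not called between them. Dgkk was highest in C-LTMR, at 0.341 and 0.393 RPKM in DP, 5.72 and 6.41 RPKM in C-LTMR and 0.132 and 0.0817 RPKM in DN. It passed the filter through the C-LTMR libraries alone, so its calls are no support for a difference. In C-LTMR over DN 3 of these genes, Dgkk among them, were higher and 1 was lower, where 8.67% and 22.3% of all rows were.

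**Figure D5:**
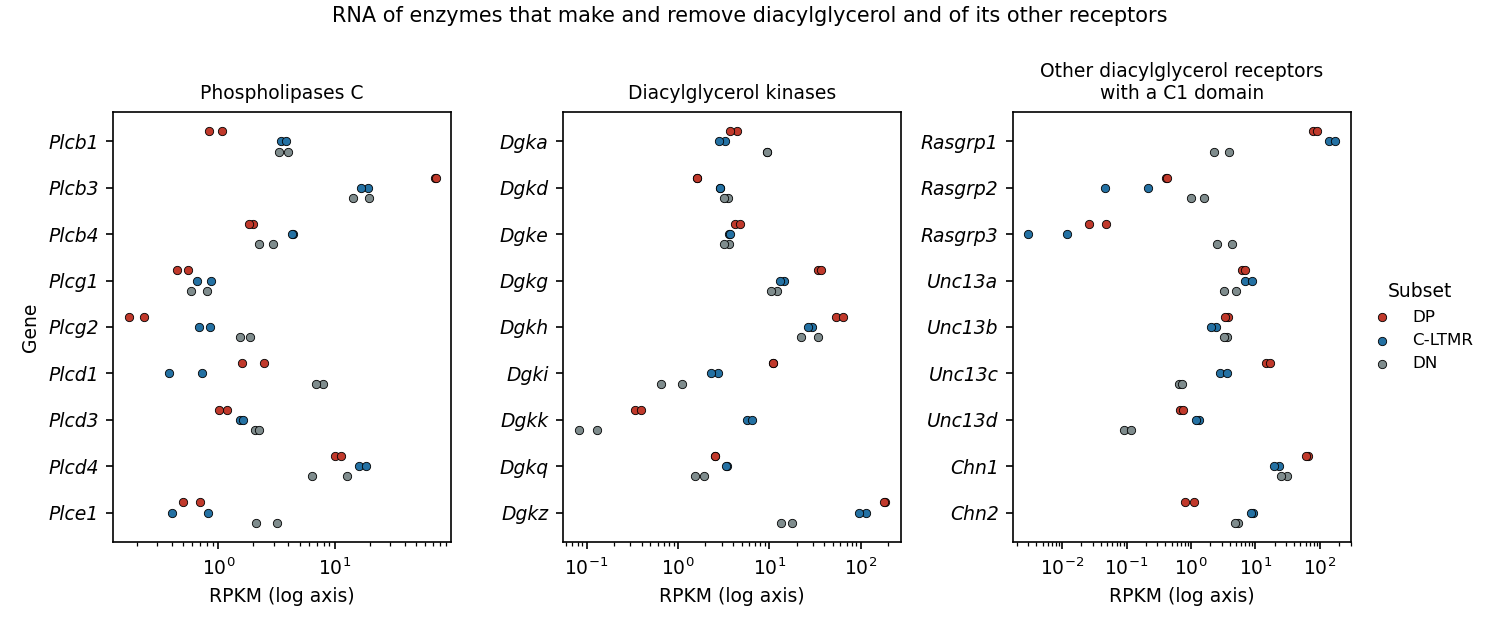
RPKM on a log axis of the phospholipase C genes, diacylglycerol kinase genes and other C1-domain genes that passed the filter, with 2 points per subset (DP above, then C-LTMR, then DN) and values under 0.003 drawn at 0.003. Plcb3 stands apart in DP (73.1 and 73.3), Dgkk in C-LTMR (5.72 and 6.41), and Rasgrp1 is at 3.83 and 2.29 in DN and at least 79.5 in the other subsets.

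Other receptors of diacylglycerol carry the same C1 domain as PKC, and 9 of 10 passed the filter. In DP over C-LTMR Unc13c and Chn1 were higher and Chn2 was lower, where 6.60% of all rows were higher and 8.62% lower. Chn1, which encodes a GTPase-activating protein of Rac, was at 66.5 and 61.5 RPKM in DP, 22.9 and 19.2 RPKM in C-LTMR and 31.01 and 25.04 RPKM in DN. Its paralog Chn2 was at 0.795 and 1.11 RPKM in DP, 9.30 and 8.49 RPKM in C-LTMR and 5.39 and 4.76 RPKM in DN (log2 fold change -3.11 in DP over C-LTMR, limma BH-adjusted p = 7.09e-05). Against DN, 4 genes were higher and 3 lower in DP, where 7.92% and 24.4% of all rows were, and 3 were higher and 2 lower in C-LTMR, where 8.67% and 22.3% were. Rasgrp2 and Rasgrp3, the 2 lower in C-LTMR and also among the 3 lower in DP, passed the filter through DN alone. Their calls are no support for a difference. Rasgrp1, which encodes a Ras activator, was at 79.5 and 89.8 RPKM in DP, 137 and 174 RPKM in C-LTMR and 3.83 and 2.29 RPKM in DN, with a log2 fold change of 4.79 in DP over DN (limma BH-adjusted p = 1.34e-05) and 5.65 in C-LTMR relative to DN (limma BH-adjusted p = 7.36e-06).

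Genes that prime, dephosphorylate or anchor PKC came with no call between the GINIP+ subsets. Of all rows 15.2% were called there in either direction, so 0 calls in lists this small are near the background. Of 8 genes of priming and dephosphorylation, all of which passed the filter, 0 were called in DP over C-LTMR by limma, with 0 at an unadjusted p under 0.05, and the smallest BH-adjusted p was 0.19 (Phlpp1). Pdpk1, the kinase that phosphorylates the activation loop of PKC, was at 19.9 and 21.5 RPKM in DP, 21.3 and 21.3 in C-LTMR and 13.1 and 10.1 in DN. Phlpp1, which encodes a phosphatase of PKC, was lower than in DN in both (log2 fold change -2.14 in DP, limma BH-adjusted p = 0.00148, and -1.48 in C-LTMR, limma BH-adjusted p = 0.00792). Of 8 scaffold and anchor genes 6 passed the filter and 0 were called in DP over C-LTMR by limma, with 4 at an unadjusted p under 0.05. Counts at an unadjusted p were made for the lists and not for all rows. Akap12 had an adjusted p of 0.0159 in limma there, with a log2 fold change of -0.61. Prkcdbp, which encodes a protein that binds PKC delta, was lower than in DN in both, at 26.9 and 24.4 RPKM in DP, 19.8 and 20.6 RPKM in C-LTMR and 69.6 and 89.5 RPKM in DN (log2 fold change -1.62 in DP over DN, limma BH-adjusted p = 8.69e-05).

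Of 12 genes of PKC substrates, all of which passed the filter, 2 were higher and 2 lower in DP over C-LTMR, 1 was higher and 7 lower in DP over DN, and 0 were higher and 6 lower in C-LTMR over DN. Over all rows 6.60%, 7.92% and 8.67% were called higher and 8.62%, 24.4% and 22.3% lower in these comparisons, and 2 of the substrate genes, Nrgn and Ppp1r14a, passed the filter through DN alone. The medians were 0.445, -2.12 and -1.26 on the log2 scale, beside -0.0492, -0.167 and -0.0637 over all rows. Marcks, the gene of a major substrate at the membrane, was at 19.7 and 21.2 RPKM in DP, 46.4 and 51.3 RPKM in C-LTMR and 83.9 and 112 RPKM in DN, in the reverse order of Prkca. Gap43, the gene of a growth cone protein that PKC phosphorylates, followed the same order, at 83.7 and 64.0 RPKM in DP, 178 and 165 RPKM in C-LTMR and 646 and 560.1 RPKM in DN. Both were lower in DP than in C-LTMR (log2 fold change -1.25, limma BH-adjusted p = 0.00102 for Marcks, and -1.23, limma BH-adjusted p = 0.00106 for Gap43). Ppp1r14b, which encodes a phosphatase inhibitor switched on by PKC, was higher in DP, at 38.9 and 33.8 RPKM against 16.5 and 14.0 RPKM in C-LTMR (log2 fold change 1.25, limma BH-adjusted p = 0.000395).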

How the data were processed

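Total RNA of 6 libraries was amplified and sequenced after TruSeq preparation, per the labels' protocols. The submitters' processing notes name CASAVA 1.8.2, edgeR 2.6.2 and GRCm38 (mm10); the sources used here name no aligner, annotation or use of strand. The authors deposited an RPKM table of 23029 rows, the source of every level here. They also deposited a TMM-normalized signal table of 6620 genes, which holds 7 of the 8 members (not Prkch) and was used as an alternative and for gene lengths.

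RPKM was taken as log2(value + 0.1), and rows with at least 0.5 in at least 2 libraries were kept. All 6 libraries entered one limma 3.58.1 fit (R 4.3.3, eBayes with a trend, 3 residual and 3.65 prior degrees of freedom), with p-values adjusted over 13478 rows. Depth was estimated from 4476 genes with 1 annotated transcript, as the peak of values worth a single read, and 40.2% to 46.1% of candidate values lay in it. Amplified reads without molecular identifiers are not independent molecules. Marker list sums and nearest profiles were computed in Python 3.11.15 with pandas 2.3.3. Members and gene lists were chosen with earlier results of these data known. The genes named are the members, their 3 nearest profiles, up to 4 called genes of each list and comparison with the largest change, and, chosen after their values were seen, single uncalled genes, Csf1r and Cd3e.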

Additional observations from a re-analysis of the deposited data

How the results depend on the processing

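Of 405 fold changes of members under 17 alternatives, 386 kept their direction and their call, which takes p and fold together. Some of these crossed the p threshold alone, as in C-LTMR over DN for Prkcq (limma BH-adjusted p = 0.00593) and Prkci (0.042) after quantile normalization and for Prkcd with the replicate block (0.0456). Direction changed for 10, all of them uncalled with a log2 fold change near 0. In DP over C-LTMR Prkch reached 0.052 after quantile normalization, and with the pan-sensory-neuron scaling Prkce reached -0.11 and Prkcz -0.013. The remaining 7 came from leaving out single libraries, where Prkch ran from -0.323 to 0.117 and Prkce from -0.075 to 0.137 in DP over C-LTMR, Prkci from -0.076 to 0.122 in DP over DN, and Prkcq from -0.016 to 0.54 in C-LTMR over DN. Prkcd in C-LTMR over DN was called with the pan-sensory-neuron scaling (1.02), which used the median level of those genes and did not level them. The cause was not tested. Counts of members called stayed within 1.5 times of 4, 6 and 4 in the 3 comparisons, at 3 to 4, 5 to 7 and 3 to 4, but their directions did not: with the pan-sensory-neuron scaling they were 5 higher and 1 lower in DP over DN and 4 higher and 0 lower in C-LTMR over DN. Calls over all rows, 2052 in DP over C-LTMR, 4361 in DP over DN and 4167 in C-LTMR over DN, were 843, 1645 and 1562 in the TMM-normalized table, where fewer genes were tested, 1196 in DP over C-LTMR with a pseudocount of 1, and 6298 in C-LTMR over DN with the pan-sensory-neuron scaling. Without single libraries they ran from 1764 to 2071, 4171 to 4544 and 3914 to 4447. The median of all rows moved to 0.149 and 0.437 in DP over DN and to 0.159 and 0.685 in C-LTMR over DN after quantile normalization and with the pan-sensory-neuron scaling. With that scaling 2777 rows were called higher and 2472 lower in DP over DN. In C-LTMR over DN they were 4132 and 2166, of 13478 rows tested.

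The main fit left replicate number out, and the labels do not say what equal numbers share. The correlation of same-numbered deviations was 0.377 for DP and C-LTMR, 0.279 for C-LTMR and DN and 0.097 for DP and DN. All were positive, so they give no ground for leaving the number out, and a replicate block was run as an alternative. With it the SE of Prkch fell from 0.222 to 0.129 and that of Prkcb rose from 0.277 to 0.286. With the replicate block 2111, 4385 and 4180 rows were called, and the members called were 4, 6 and 4.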

Other observations

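Prkd2, which encodes a protein kinase D that diacylglycerol and PKC activate, passed the filter through the DN libraries alone and is given by its levels only. It was at 0.259 and 0.275 RPKM in DP, 0.149 and 0.165 RPKM in C-LTMR and 2.22 and 3.44 RPKM in DN.

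Of 8 genes of polarity partners of aPKC, Pard6b was lower in DP than in C-LTMR, at 0.838 and 0.844 RPKM in DP and 2.28 and 3.23 RPKM in C-LTMR (log2 fold change -1.58, limma BH-adjusted p = 0.00106), and 5 were lower than in DN in each GINIP+ subset, with 0 higher. Of all rows 8.62% were called lower in DP over C-LTMR, 24.4% in DP over DN and 22.3% in C-LTMR over DN. Of the 5, 2 passed the filter through DN alone, Pard3b and Llgl2. Pard6b and Pard6g were at 6.70 and 7.37 RPKM and at 5.69 and 10.95 RPKM in DN. Pard6a, a paralog that was not called in any comparison, was the most abundant of the Par6 genes, at 15.9 and 17.7 RPKM in DP, 21.5 and 20.8 RPKM in C-LTMR and 18.7 and 16.7 RPKM in DN. The glial and endothelial marker sums that were high in DN stand beside these differences, and their part in them was not tested.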
